A study of Homo sapiens with 6 samples.

Results

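The MYC, MAX and MXD network was followed in 10 genes, MYC, MYCN, MYCL, MAX, MLX, MXD1, MXD3, MXD4, MXI1 and MNT, of the 19977 genes counted. Each was found by the Ensembl identifier that carries its symbol in GENCODE 44, and all 10 had enough counts to be tested, so no member was lost to the filter on low counts. The RNA came from NCRM-1, a wild-type human induced pluripotent stem cell (iPSC) line, cultured as aggregates for 4 days in bioreactors in E8 medium, a defined medium for pluripotent cells. In PEG and HS (3 libraries) the medium held 10 mg/ml of polyethylene glycol and 0.1 µg/ml of heparin sodium salt, and E8 control (3 libraries) has the treatment label Control, with E8 medium given for the control bioreactor in the growth note. In both, 50% of the medium was exchanged on the second day. The treatment note attached to the control libraries repeats the additives, and groups here follow each library's own treatment field. The labels read as 1 bioreactor for each medium, so an effect of vessel and one of medium cannot be told apart. The tests below measure the spread between 3 samples that may share a vessel. NCRM-1 is a single line, and whether another line would give the same values was not measured.

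MYC, MYCN and MYCL are transcription factors of the basic helix-loop-helix leucine zipper class. They bind DNA as pairs with MAX, prefer the E-box sequence CACGTG, and raise transcription of genes for ribosome production, metabolism and growth. MXD1, MXI1, MXD3, MXD4 and MNT compete for the same partner and the same sites and recruit the SIN3 corepressor, and MXD1 and MXD4 are known for accompanying the exit from the cell cycle in differentiation. MLX is a MAX-like partner that pairs with MXD1, MXD4, MNT and the glucose-sensing MondoA proteins. In pluripotent cells MYC and MYCN are known as factors of self-renewal, and MYC is one of the classical reprogramming factors.

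Libraries held 26991279 to 36185138 counts. Levels are given as CPM, counts scaled to a common library size with edgeR's TMM factors, and differences as the log2 fold change (log2 FC), positive where PEG and HS was higher. A gene was called where its p from the quasi-likelihood test of edgeR, adjusted by Benjamini-Hochberg over the 16505 genes tested, lay under 0.05. By this rule 25.3% of all genes tested passed (12.2% higher with PEG and HS, 13.1% lower), and 32.4% of genes with a mean of at least 10 CPM. Of the 10 members, 2 were called, MYC higher and MXD4 lower in PEG and HS, a share no greater than that of all genes. In 5 members the values of the media were fully apart, 3 higher and 2 lower in PEG and HS, against 39.3% of all genes tested (19.5% higher and 19.8% lower). All 10 pluripotency markers checked were present, with DNMT3B at 2216 ± 26.7 CPM in the control (SD, n = 3) and 2239 ± 26.4 CPM with PEG and HS, and 5 were called higher (NANOG, L1TD1 and DPPA4 the most) and 3 lower (SOX2, PODXL and LIN28A). The summed level of 8 neuroectoderm markers was 37.1 to 41.6 CPM with PEG and HS and 152 to 157 CPM in the control. Of the 8, 7 were called lower (6 by DESeq2), LHX5, OTX2 and SOX1 the most. Of 8 mesoderm markers 1 was called higher (KDR) and 3 lower (HAND1, TNNT2 and TBX6). DESeq2 called 1 higher and 2 lower, and HAND1 had a mean of only 0.0099 CPM with PEG and HS and 0.164 CPM in the control. Summed over the 8, the ranges were 63.95 to 67.5 CPM with PEG and HS and 58.9 to 63.0 CPM in the control. Most of each mesoderm sum was KDR, at 59.8 CPM with PEG and HS and 52.4 CPM in the control. The median log2 fold change of the 8 was -0.45, so the sum does not stand for the list. Of the 6 endoderm markers tested 0 were called by edgeR, DESeq2 or limma-voom, with 2 lower at an unadjusted p under 0.05 from edgeR. The whole list of 8 summed to 4.64 to 4.95 CPM with PEG and HS and 5.76 to 7.67 CPM in the control. SOX17 and GATA4 had too few counts to be tested. Of the 6 trophectoderm markers tested, TFAP2A, GATA2 and KRT7 were called lower (5.66 to 6.32 and 15.35 to 16.2 CPM over the list of 8), CDX2 was not tested and CGA had no count. The part of these other cell types in the values of the network was not tested, and in bulk RNA fewer cells of a type and less RNA per cell cannot be told apart.

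**Figure D1:**
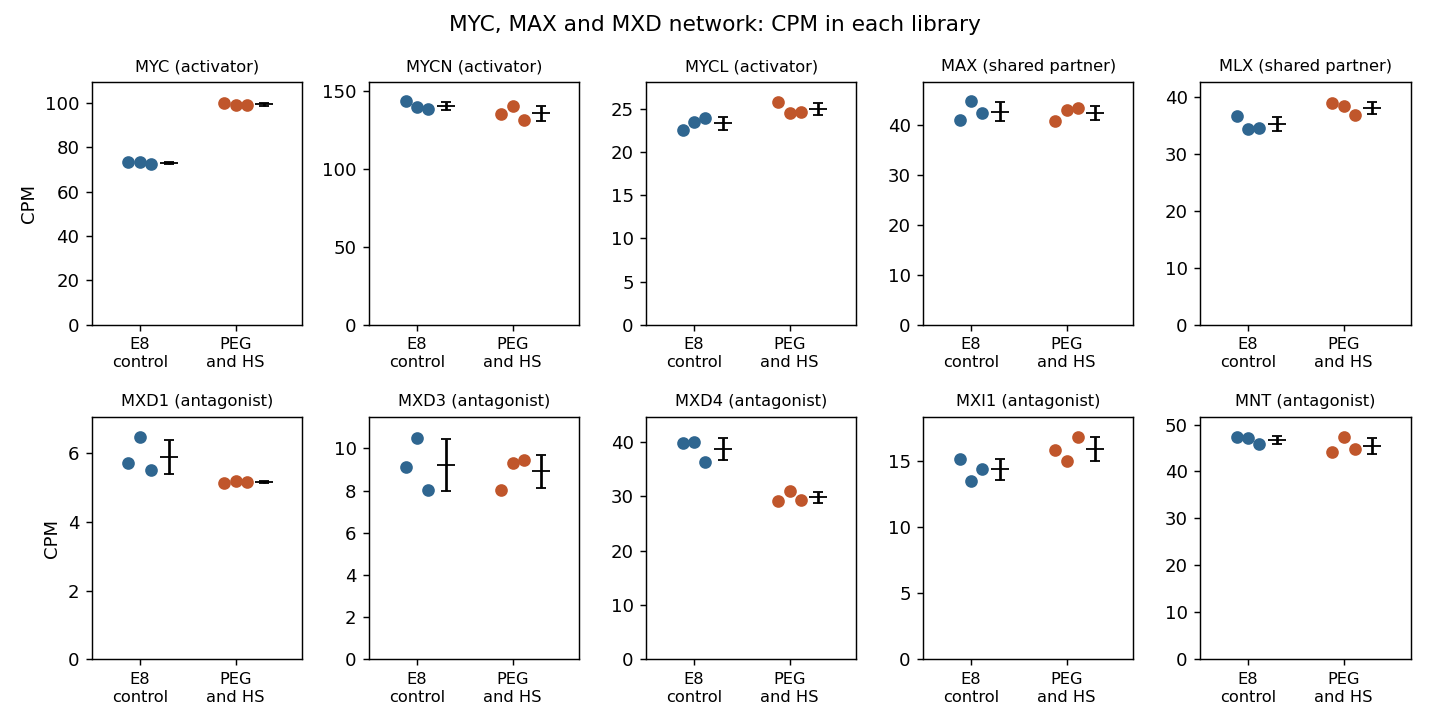
CPM of each of the 10 network genes in the 3 E8 control (blue) and 3 PEG and HS (orange) libraries, with the mean and SD in black; each axis starts at 0. The 3 PEG and HS libraries lie above the 3 E8 control libraries for MYC (98.9 to 99.8 against 72.3 to 73.4 CPM) and below them for MXD4 (29.2 to 30.9 against 36.2 to 39.8 CPM).

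MYC rose in PEG and HS while the 2 other activators did not pass the test. MYC (ENSG00000136997, chromosome 8, 127735434 to 127742951 of GRCh38, plus strand) had 99.8, 98.9 and 99.2 CPM in PEG and HS replicates 1 to 3 and 73.2, 73.4 and 72.3 CPM in E8 control replicates 1 to 3. The 3 values of each medium lay close together and the media were well apart. The log2 FC was 0.45 (SE 0.03, 95% interval 0.38 to 0.51, adjusted p = 2.4e-08), a level 36.1% higher in PEG and HS. These values rest on 1975 to 3366 counts per library.

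MYCN (ENSG00000134323, chromosome 2, 15940550 to 15947007, plus strand), the MYC paralog best known from neural progenitors and neuroblastoma, was the member with the highest CPM. It had 135, 140.4 and 131 CPM with PEG and HS and 143, 139.6 and 138 CPM in the control. The media overlapped, since the second PEG and HS library lay above 2 of the control libraries. The log2 FC was -0.05 (SE 0.032, 95% interval -0.12 to 0.02, adjusted p = 0.279). MYCL (ENSG00000116990, chromosome 1, 39895428 to 39902256, minus strand), the third paralog, was at 25.8, 24.5 and 24.6 CPM with PEG and HS and 22.5, 23.5 and 24.0 CPM in the control. Its libraries did not overlap, but the gap between the media was smaller than the range within either, and the test was not passed (log2 FC 0.10, SE 0.05, adjusted p = 0.182).

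The response of MYC was set against that of MYCN within each library. The CPM of MYC divided by that of MYCN was 0.739, 0.704 and 0.757 in PEG and HS and 0.511, 0.5255 and 0.5235 in E8 control, with no overlap. The log2 difference of this ratio between media was 0.496, with a two-sided exact permutation p of 0.1. That is the smallest p that 3 libraries against 3 can give. Values fully apart always give it, so it adds nothing to the lack of overlap. To compare levels between genes, CPM was divided by the length of the merged exons of each gene in kb. On this scale MYCN was at 49.2 ± 1.71 CPM per kb (SD, n = 3) in PEG and HS and 50.9 ± 0.952 in E8 control, MYC at 16.3 ± 0.0777 and 11.9 ± 0.0948, and MYCL at 5.03 ± 0.148 and 4.695 ± 0.151. MYC thus made up 23.1% ± 0.589 of the length-scaled activator sum in PEG and HS and 17.7% ± 0.164 in E8 control, and MYCN 69.8% ± 0.806 and 75.4% ± 0.453. With the length of the MANE Select transcript (1 reference transcript for each gene) in place of merged exons, the share of MYC was 31.2% ± 0.690 and 24.5% ± 0.190.

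Neither shared partner was called by edgeR, DESeq2 or limma-voom (0 of 2, with MLX under an unadjusted p of 0.05). MAX (ENSG00000125952, chromosome 14, 65006174 to 65102695, minus strand), the obligate partner of the MYC proteins, had 40.8, 43.0 and 43.6 CPM with PEG and HS and 41.0, 44.85 and 42.4 CPM in the control. The media overlapped throughout, and the interval of the log2 FC ran from -0.11 to 0.08 (log2 FC -0.01, SE 0.044, adjusted p = 0.888). MLX (ENSG00000108788, chromosome 17, 42567072 to 42573239, plus strand) had 39.0, 38.5 and 36.9 CPM with PEG and HS and 36.7, 34.5 and 34.6 CPM in the control. These did not overlap, by a margin of less than the spread within a medium, and the gene missed the threshold (log2 FC 0.11, SE 0.044, adjusted p = 0.07). Exons of both genes overlap protein-coding genes on the opposite strand, FNTB and CHURC1-FNTB for MAX and PSMC3IP for MLX. Opposite-strand lncRNA genes likewise overlap exons of MAX, MYC, MYCN, MYCL, MXI1 and MNT, and the protein-coding PRELID1 overlaps those of MXD3. Whether strand was used in counting is not given in the sources used here, so reads of such pairs cannot be told apart. On the same strand, the protein-coding SNRNP27 overlaps exons of MXD1 and RAB24 those of MXD3.

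Among the antagonists MXD4 fell and the other 4 were not called. MXD4 (ENSG00000123933, chromosome 4, 2247432 to 2262109, minus strand), also known as MAD4, had 29.2, 30.9 and 29.2 CPM with PEG and HS and 39.7, 39.8 and 36.2 CPM in the control. Every PEG and HS library lay below every control library, and the third control library was the nearest to them. Its level in PEG and HS fell by 22.8% (log2 FC -0.37, SE 0.049, 95% interval -0.48 to -0.27, adjusted p = 4.1e-05), from 872 to 1307 counts per library.

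MNT (ENSG00000070444, chromosome 17, 2384073 to 2401104, minus strand), a broadly expressed antagonist and the most abundant of the 5 in CPM, had 44.1, 47.4 and 44.8 CPM with PEG and HS and 47.3, 47.1 and 45.8 CPM in the control. The second PEG and HS library was the highest of all 6, so the media overlapped (log2 FC -0.04, SE 0.04, adjusted p = 0.503). MXI1 (ENSG00000119950, chromosome 10, 110207605 to 110287365, plus strand) had 15.8, 15.0 and 16.8 CPM with PEG and HS and 15.2, 13.5 and 14.4 CPM in the control, in the opposite direction to MXD4 and with overlap (log2 FC 0.15, SE 0.066, unadjusted p = 0.0388 and adjusted p = 0.115 from edgeR). MXD1 (ENSG00000059728, chromosome 2, 69897688 to 69942945, plus strand), the founding member of the group, was the least abundant. It had 5.13, 5.20 and 5.17 CPM with PEG and HS and 5.71, 6.46 and 5.515 CPM in the control, without overlap, but from only 147 to 210 counts per library, and it did not pass the test (log2 FC -0.19, SE 0.097, adjusted p = 0.178). MXD3 (ENSG00000213347, chromosome 5, 177301461 to 177312757, minus strand), described in proliferating progenitors, ranged from 8.01 to 9.43 CPM with PEG and HS and from 8.01 to 10.5 CPM in the control (log2 FC -0.05, SE 0.1, adjusted p = 0.787). MXD3 shares 18.4% of its 31-base transcript words with other genes, most with the overlapping RAB24, and its value depends on how such reads were counted; the other 9 members share at most 5.50%.

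**Figure D2:**
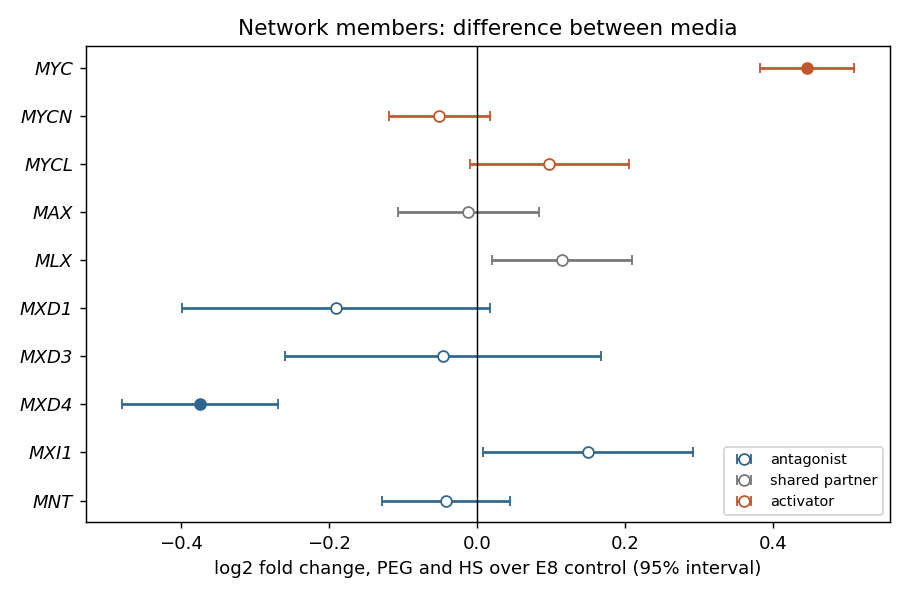
Log2 FC of PEG and HS over E8 control with its 95% interval for the 10 members, coloured by role; filled points were called at an adjusted p under 0.05 and open points were not. MYC (0.45) and MXD4 (-0.37) lie farthest from 0 and the other 8 between -0.19 and 0.15; the unadjusted intervals of MLX (0.021 to 0.21) and MXI1 (0.0088 to 0.29) also leave out 0, although neither was called.

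Per kb of merged exons, the order of levels in E8 control ran from MYCN, MYC, MLX, MAX, MXD4, MNT, MYCL and MXI1 to MXD3 and MXD1. Here MXD4 (5.61 ± 0.296 CPM per kb) and MNT (5.37 ± 0.0954) overlapped, whereas all other neighbours were apart. In PEG and HS the order was that of MYCN, MYC, MLX, MAX, MNT, MYCL, MXD4, MXI1, MXD3 and MXD1, so that MXD4 was the seventh and not the fifth, and MNT and MYCL were the overlapping neighbours. The order depends on the length used. With MANE Select lengths MAX (21.3 ± 0.961 CPM per kb) lay above MYC (19.6 ± 0.156) in E8 control and below it in PEG and HS (21.1 ± 0.719 against 26.7 ± 0.128), and MXD3, whose merged exons span 4743 bases against 1067 in its MANE Select transcript, ranked above MXI1 and MYCL.

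The activators were compared with the antagonists as length-scaled sums per library. MYC, MYCN and MYCL together had 70.6, 72.1 and 68.75 CPM per kb in PEG and HS and 68.5, 67.4 and 66.8 in E8 control, which leaves a narrow gap between the media. The 5 antagonists together had 14.5, 15.3 and 15.0 CPM per kb in PEG and HS and 16.6, 16.7 and 15.5 in E8 control. These did not overlap with merged exon lengths. With MANE Select lengths the antagonist sums overlapped, since PEG and HS replicate 2 (31.58 CPM per kb) lay above E8 control replicate 3 (31.29). With merged exons the ratio of the activator sum to the antagonist sum was 4.87, 4.725 and 4.57 in PEG and HS and 4.13, 4.03 and 4.30 in E8 control. Its mean was 4.72 ± 0.149 (SD, n = 3) against 4.15 ± 0.139, a log2 difference of 0.18, of which the activator sum gave 0.06 and the antagonist sum -0.12. As the members were chosen with earlier results known, this ratio is a description and carries no test. Without MYC the ratio was 3.63 ± 0.128 and 3.42 ± 0.115 and the media overlapped, without MXD4 it was 6.65 ± 0.260 and 6.34 ± 0.176, again with overlap, and without MYCN, the most abundant term, it was 1.43 ± 0.0532 and 1.02 ± 0.0438.

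**Figure D3:**
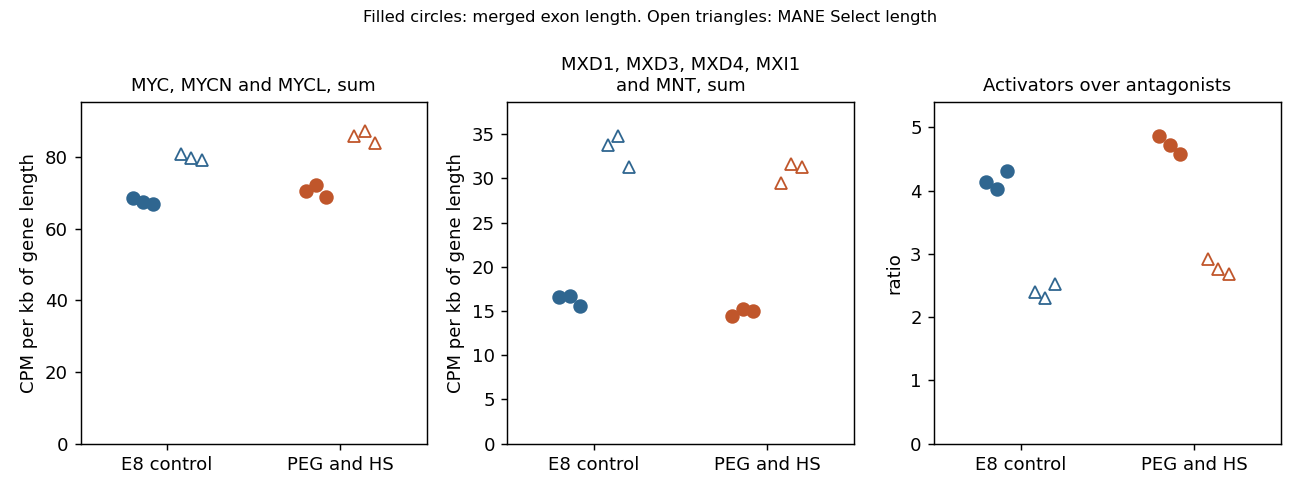
Length-scaled sums (CPM per kb) of the 3 activators and the 5 antagonists and their ratio in each library, with merged exon lengths (filled circles) and MANE Select lengths (open triangles); axes start at 0. The ratio lies higher in PEG and HS with either length, at 4.57 to 4.87 against 4.03 to 4.30 for merged exons and at 2.68 to 2.91 against 2.30 to 2.53 for MANE Select.

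Promoters of the network were searched for the E-box CACGTG, which the members bind and which reads the same on both strands. RefSeq promoters (GRCh38.p14, 250 bases before to 50 after a start site) were found for 9 of the 10 members, all but MYC, and 3 of the 9 held the motif, against 11.9% of the tested genes with a promoter. These were MXD4, MNT and MLX, of which MXD4 was called and the other two were not. Their sequences are shown, 5′ to 3′ on the strand of the gene and ending before the start site, because they place the same motif upstream of a member that fell and of 2 that did not pass the test; capitals mark the E-box.
MXD4 (chr4:2262295-2262359, minus strand, E-box 238 bases before the start site): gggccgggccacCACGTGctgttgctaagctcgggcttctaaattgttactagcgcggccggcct
MNT (chr17:2401201-2401300, minus strand, E-box 193 bases before the start site): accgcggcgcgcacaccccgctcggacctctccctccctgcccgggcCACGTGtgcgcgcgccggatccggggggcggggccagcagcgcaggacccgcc
MLX (chr17:42567003-42567099, plus strand, E-box 50 bases before the start site): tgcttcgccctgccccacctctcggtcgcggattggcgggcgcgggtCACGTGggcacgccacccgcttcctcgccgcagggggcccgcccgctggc
A match describes these letters alone, and binding was not measured.

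Genes described as induced by MYC were followed as a list of 30, most of them for ribosome production, chaperones and metabolism. In PEG and HS 20 of the 30 were called higher and 0 lower by edgeR (2 lower at an unadjusted p under 0.05, 0 called lower by DESeq2 and 2 by limma-voom), against 12.2% higher and 13.1% lower among all genes tested. Among genes with a mean of at least 10 CPM, as all 30 had, 32.4% were called in either direction. The median log2 FC of the 30 was 0.11, against 0.0031 over all genes tested, so the differences were small. ODC1, the rate-limiting enzyme of polyamine synthesis and a classical MYC target, rose most. It had 208, 202 and 213 CPM with PEG and HS and 161, 165 and 168 CPM in the control, far apart (log2 FC 0.34, SE 0.029, adjusted p = 5.3e-07). LDHA, lactate dehydrogenase A, had 304, 299.6 and 309 CPM against 258, 263 and 258 CPM (log2 FC 0.23, SE 0.026, adjusted p = 9.4e-06). HSPD1, the mitochondrial chaperonin, had 1335, 1270 and 1369 CPM against 1137, 1141 and 1167 CPM (log2 FC 0.21, SE 0.029, adjusted p = 6.6e-05). In each of these 3 genes every PEG and HS library lay above every control library.

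The nucleolar genes of the list did not all pass the test. NCL (nucleolin) rose from 1513 ± 19.4 to 1632 ± 54.5 CPM (log2 FC 0.11, adjusted p = 0.0076), while NPM1 (nucleophosmin) was at 1705 ± 100.5 CPM with PEG and HS and 1652 ± 28.6 CPM in the control (adjusted p = 0.376). FBL, the methyltransferase fibrillarin, and CDK4, a cell cycle kinase, had negative log2 FCs of -0.13 (adjusted p = 0.0509) and -0.09 (adjusted p = 0.0526). Both values lay at the edge of the threshold, and under RLE size factors both genes were called lower (adjusted p = 0.0482 and 0.0493). NCL, NPM1, FBL and CDK4 were chosen after their values were seen.

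**Figure D4:**
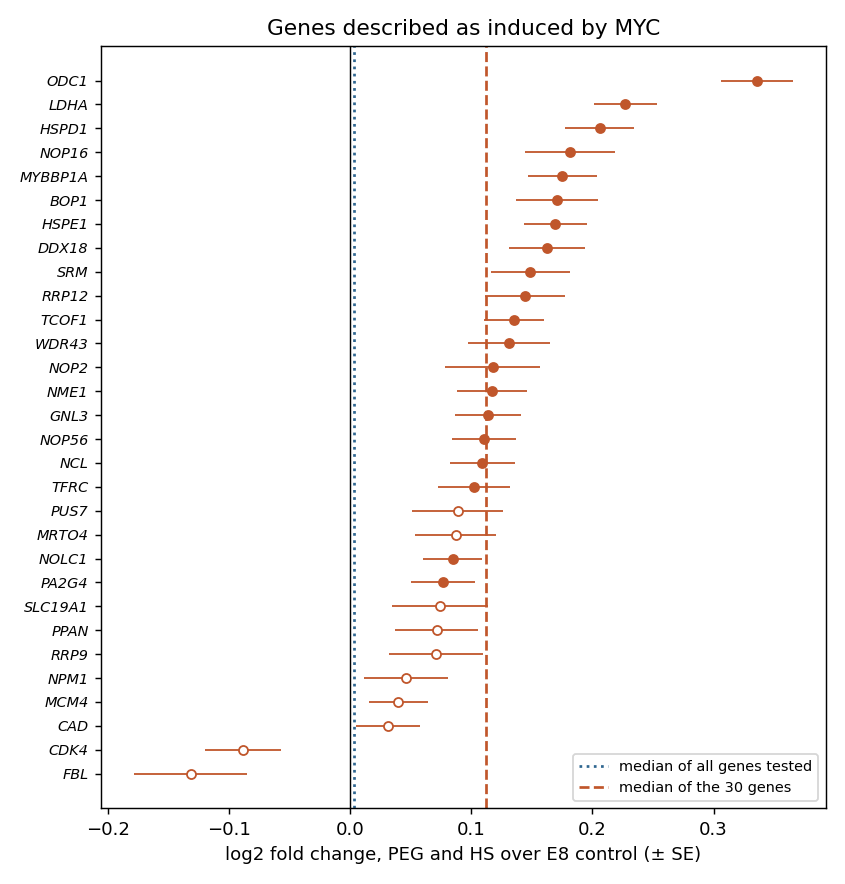
Log2 FC (± SE) of the 30 genes described as induced by MYC, PEG and HS over E8 control; filled points were called. The points run from -0.13 (FBL) to 0.34 (ODC1), 28 of the 30 lie above 0, and the median of the list (dashed) is 0.11 against 0.0031 for all genes tested (dotted).

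A promoter was found for 24 of these 30 genes, and 16 of the 24 (66.7%) held CACGTG, against 11.9% of the tested genes with a promoter. The genes were listed as described targets of MYC, which prefers this motif, so that share describes the list and not these libraries. The share was 10 of 15 among those called higher and 6 of 9 among those not called, 66.7% in each. As 28 of the 30 had a log2 FC above 0, this split does not compare genes that rose with genes that did not. The promoters of the 3 genes with the largest rise are shown as above, with the E-box in capitals.
ODC1 (chr2:10448013-10448088, minus strand, E-box 29 bases before the start site): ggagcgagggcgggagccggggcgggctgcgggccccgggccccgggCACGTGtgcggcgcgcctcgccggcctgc
LDHA (chr11:18394429-18394528, plus strand, E-box 87 bases before the start site): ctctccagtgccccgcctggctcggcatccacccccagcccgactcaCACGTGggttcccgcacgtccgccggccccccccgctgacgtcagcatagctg
HSPD1 (chr2:197500310-197500409, minus strand, E-box 88 bases before the start site): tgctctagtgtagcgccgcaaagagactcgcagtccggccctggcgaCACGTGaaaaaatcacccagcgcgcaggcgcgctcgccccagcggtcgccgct
LDHA holds a second copy of the motif 185 bases before its start site, and ODC1 a second copy 5 bases after its start site.

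Of 5 genes described as repressed by MYC, only GAS1, a growth arrest gene of the cell surface, was called, a count near the 25.3% of all genes tested (13.1% lower). It had 5.01, 5.63 and 5.29 CPM with PEG and HS and 10.75, 9.76 and 10.6 CPM in the control, about 1.95-fold lower (log2 FC -0.97, SE 0.083, adjusted p = 4.2e-07). CDKN1A, the cyclin-dependent kinase inhibitor p21, was at 11.1 ± 0.553 and 10.1 ± 0.860 CPM (adjusted p = 0.226), GADD45A at 9.66 ± 0.242 and 8.86 ± 0.591 CPM (adjusted p = 0.242), NDRG1 at 2.85 ± 0.498 and 3.375 ± 0.144 CPM (adjusted p = 0.236), and CDKN2B under 1 CPM in both media.

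Of 4 genes for the MondoA proteins that pair with MLX and for their targets, 1 was called higher and 2 lower. Among all genes tested, 12.2% were called higher and 13.1% lower. MLXIP, which encodes MondoA, rose from 93.9 ± 1.65 to 114 ± 1.29 CPM (log2 FC 0.28, SE 0.03, adjusted p = 3.9e-06). MLXIPL, which encodes the carbohydrate-responsive factor ChREBP, fell, with 6.76, 8.00 and 5.97 CPM with PEG and HS and 10.97, 10.9 and 10.25 CPM in the control (log2 FC -0.64, SE 0.094, adjusted p = 0.00013). TXNIP, an inhibitor of glucose uptake and a direct MondoA target, had 3.855, 5.27 and 4.61 CPM against 9.01, 8.28 and 7.57 CPM, so its libraries were apart as well (log2 FC -0.86, SE 0.112, adjusted p = 3.9e-05). ARRDC4, a second MondoA target, was at 5.305 ± 0.429 CPM with PEG and HS and 5.40 ± 0.287 CPM in the control (adjusted p = 0.927).

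The cofactors of the network were followed next. MGA, which joins MAX to a Polycomb-type repressor complex, was at 130 ± 2.515 CPM with PEG and HS and 126 ± 3.21 CPM in the control (adjusted p = 0.357). Of the 11 genes of that complex only RING1 was called (log2 FC -0.23, SE 0.05, adjusted p = 0.0035), against 25.3% of all genes tested. Of 13 SIN3 corepressor genes 2 were called higher, SUDS3 (log2 FC 0.15, adjusted p = 0.0029) and the deacetylase HDAC2 (log2 FC 0.14, adjusted p = 0.002), and 2 lower, SAP18 (log2 FC -0.24, adjusted p = 2.8e-05) and HDAC1 (log2 FC -0.13, adjusted p = 0.007), while SIN3A and SIN3B were not called (adjusted p = 0.602 and 0.458). These 4 of 13 lie near the share of all genes tested (12.2% higher and 13.1% lower). Median log2 FCs were -0.0024 for the MGA complex and -0.03 for the SIN3 list, against 0.0031 over all genes tested.

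Of 13 MYC coactivator genes 4 were called higher, the largest being the elongation kinase CDK9 (log2 FC 0.17, adjusted p = 0.00089), the acetyltransferase KAT2A (0.14, adjusted p = 0.026) and the helicase RUVBL1 (0.12, adjusted p = 0.011). TRRAP, the scaffold that MYC binds (log2 FC -0.08, adjusted p = 0.036), and BPTF (-0.08, adjusted p = 0.04) were called lower. Over all genes tested 12.2% were called higher and 13.1% lower, and 32.4% of genes with a mean of at least 10 CPM were called in either direction. TRRAP and BPTF lay near the threshold, and neither was called when PEG and HS replicate 1, PEG and HS replicate 2, E8 control replicate 1 or E8 control replicate 3 was left out; the number called higher dropped from 4 to 2 without PEG and HS replicate 2 or E8 control replicate 3. Of 16 genes that act on the stability of the MYC protein 4 were called higher, led by the deubiquitinase USP7 (log2 FC 0.14, adjusted p = 0.0038), the ubiquitin ligase subunit SKP2 (0.13, adjusted p = 0.006) and CIP2A, an inhibitor of the phosphatase PP2A (0.11, adjusted p = 0.044), and 2 lower, the kinases PLK1 (-0.11, adjusted p = 0.0068) and GSK3B (-0.10, adjusted p = 0.034). These 6 of 16 lie near the 32.4% called among genes with a mean of at least 10 CPM (25.3% of all genes tested). The number called higher was 2 without PEG and HS replicate 1, E8 control replicate 1 or E8 control replicate 2, and the number lower was 1 without PEG and HS replicate 1 or E8 control replicate 2. FBXW7, the ubiquitin ligase receptor for phosphorylated MYC, was at 24.65 ± 1.56 and 25.0 ± 2.15 CPM (adjusted p = 0.842). The median log2 FCs were 0.02 for the coactivators and -0.01 for the stability list. These are transcript levels, and MYC protein was not measured here.

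The 3 genes with a pattern most like MYC over the 6 libraries, by Pearson's r of log2 CPM among 9710 genes with at least 10 CPM in each library, were CPT1A (r = 0.999), the carnitine palmitoyltransferase of fatty acid oxidation, VSNL1 (r = 0.999), a calcium sensor, and HERC2 (r = 0.999), a ubiquitin ligase. CPT1A was at 54.9 CPM with PEG and HS and 30.4 CPM in the control, VSNL1 at 48.3 and 26.1 CPM, and HERC2 at 377 and 319 CPM. The 6 points share the contrast between media, which any gene with a tight difference follows, and 108 genes lay within 0.01 of the third r or above it, so these 3 are not set apart from many others.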

How the data were processed

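The 6 files hold raw counts per gene, 1 library each, as the authors deposited them, with genes at 0 kept. Per the methods and labels the authors trimmed reads with Trim Galore 0.6.7 and mapped them to GRCh38 with STAR 2.6.1 in an nf-core pipeline from stranded polyadenylated libraries. The counting tool, its strand setting and the annotation release are not given in the sources used here. Of 19977 identifiers 19916 matched GENCODE 44, which gave symbols, coordinates and lengths.

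The 16505 genes whose counts summed to 10 or more were tested with edgeR 4.0.16 in R 4.3.3 (TMM scaling, then glmQLFit and glmQLFTest on medium alone) and adjusted by Benjamini-Hochberg. The SE is the size of the log2 FC divided by the root of F, and 95% intervals use the t distribution of the fit. The scripts were tested on simulated counts. Alternatives were DESeq2 1.42.0, limma-voom (limma 3.58.1), other normalizations, filters and thresholds, the replicate number as a block, and each library left out in turn. Same-numbered libraries of the media did not deviate together (r of their deviations -0.0147, 0.0277 and 0.0596 over 13557 genes), so the numbers were not taken as pairs. Counts of replicates in a medium differed beyond Poisson sampling (chi-square over its degrees of freedom 2.61 to 3.60). This cannot tell separate cultures from repeated samples of 1 vessel. All 6 were used as separate samples. The common biological coefficient of variation was 3.12%.

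The members and gene lists were chosen with earlier results of these data known. The text names all 10 members, up to 3 called genes in each direction of every list of partners or targets, and the 3 genes most like MYC. Other genes it names were picked outside this rule, among them MGA, SIN3A, SIN3B, FBXW7, ARRDC4 and the uncalled MYC-repressed genes.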

Additional observations from a re-analysis of the deposited data

How the results depend on the processing

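Each member kept its side of the 0.05 limit in all 14 alternative fits, and MYC and MXD4 kept their direction. The log2 fold change of MYC ran from 0.43 to 0.45 (highest adjusted p 1.1e-06) and that of MXD4 from -0.42 to -0.35 (highest adjusted p 0.00068). MAX (-0.04 to 0.02) and MXD3 (-0.14 to 0.06), neither called, changed sign when libraries were left out. With the replicate number as a block, MYC was at 0.44 and MXD4 at -0.37, and the block moved the genes called from 4173 to 4444. It added 2 called lower among the induced genes, where 2 were also called lower with limma-voom, RLE size factors, upper quartile factors, no filter and filterByExpr, and 0 to 1 with a library left out; 15 to 21 were called higher with a library left out. At an adjusted p under 0.01, 2601 genes were called, 1167 higher and 1434 lower, with 1 coactivator higher and 0 lower, and 2 stability genes higher and 1 lower. With library size alone 0 coactivators were called lower. With a library left out, 2 to 3 coactivators were called higher and 0 to 2 lower, and 2 to 4 stability genes higher and 1 to 2 lower. The log2 difference of the activator sum, 0.06, was 0.10 with MANE Select lengths. Sums chosen after seeing the data left out single members. Without MYCN the log2 difference between media was 0.36 for the activator sum and 0.48 for the ratio, and without MYC -0.038 and 0.087. Without MXD4 it was 0.069 for the ratio and -0.0092 for the antagonist sum. The log2 difference of the ratio lay between 0.16 and 0.21 with a library left out. Causes were not tested. The least counted members, MXD1 and MXD3, had the largest SE of the 10, near 0.1.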

Other observations

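The share of promoters with CACGTG was also counted over all genes tested. Of the 1622 genes called higher in PEG and HS that had a RefSeq promoter, 14.3% held the motif, against 12.6% of 1676 genes called lower and 11.3% of 9620 genes not called. These shares were not tested against each other.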
